A study of Mus musculus with 10 samples.

Results

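Rab GTPases are the largest family of small GTP-binding proteins, and members differ in the vesicles and organelles on which they act. A Rab cycles between a GTP-bound form on the membrane, where it recruits motors, tethers and other effectors, and a GDP-bound form that is held in the cytosol by a GDP dissociation inhibitor. Guanine nucleotide exchange factors (GEFs) switch a Rab on and GTPase-activating proteins (GAPs) switch it off. In collecting duct principal cells, vasopressin moves the water channel aquaporin-2 (AQP2) from vesicles to the apical plasma membrane, and Rabs of the exocytic, early endosomal, recycling and late endosomal steps have been found on or tied to AQP2 vesicles.

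The members described here are the genes whose symbol is Rab, a number, at most 1 letter and at most 1 further number, and 59 of the 55414 genes in the table met this rule. Another 18 symbols that begin with Rab and a digit did not meet it and are not members. mpkCCD cells are an immortalized line of mouse cortical collecting duct principal cells of C57BL/6 background. All 10 samples were grown on membrane filters with 0.1 nM dDAVP, a vasopressin analog selective for the V2 receptor, for 7 days, of which 4 were in complete and 3 in simple medium, so no sample without the agonist was compared. The 5 intact samples came from 3 cell lines, namely the parental line and 2 control clones from the CRISPR-Cas9 procedure in which Camk2d was still expressed (intact 1_1 and 1_2, intact 2_1 and 2_2). The 5 KO samples were single-cell-derived Camk2d knockout clones, with 1 sample per clone. A guide for exon 8 gave KO 1 and KO 2, and a guide for exon 9 gave the other 3. Differences between the groups are therefore differences between sets of clones.

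Values are TPM, transcript abundances scaled by transcript length and to the same total in every sample, so levels can be compared between genes. Camk2d was at 123 to 141 TPM in the intact samples and at 19.8 to 29.8 TPM in the KO clones. Of 12 principal cell markers, 9 had a mean of at least 1 TPM, and Scnn1b, Elf5 and Tfap2b did not. The summed level of the 12 was 5082 to 7066 TPM in intact samples and 2462 to 5305 TPM in KO clones, ranges that overlap. Most of the sum is Aqp2, and without it the sums were 1309 to 1563 TPM and 844 to 1516 TPM. Of the 9 markers, 4 (Aqp3, Scnn1a, Hsd11b2 and Gata3) had the higher mean in KO clones and 5 in intact samples, and without KO 1 the mean of Scnn1a was lower in KO clones (162 against 168 TPM). Aqp2 itself was at 3773 to 5502 TPM in intact samples and at 1281, 1618, 3789, 2880 and 2856 TPM in KO 1 to KO 5. Markers of intercalated cells summed to 0.81 to 1.51 TPM in intact and 0.86 to 1.37 TPM in KO samples, with Insrr and Atp6v1g3 listed at 0 in all. Marker sums for thick ascending limb, fibroblasts and endothelium did not exceed 0.61 TPM in any sample, those for proximal tubule lay between 6.51 and 15.05 TPM and those for leukocytes between 3.68 and 9.45 TPM. Nearly all of the proximal tubule sum was Lrp2 (6.51 to 14.91 TPM), with Slc34a1 and Slc27a2 listed at 0 in all. Nearly all of the leukocyte sum was Cd68 (3.51 to 9.05 TPM). In bulk samples such as these, fewer cells of a type and less RNA per cell cannot be told apart.

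To ask which Rabs these cells express, members with a mean of at least 1 TPM over all samples were counted as expressed, and 45 of the 59 were. Of these, 14 had a mean of at least 100 TPM, 29 lay between 10 and 100 TPM, and Rab8b (9.17 TPM) and Rab40b (3.78 TPM) lay below. Among the remaining 14 members the highest value in any sample was 0.81 TPM, for Rab7b in KO 2. Rab36, Rab3c, Rab38, Rab39b and Rab42 were listed at 0 in all samples. The other members below 1 TPM were Rab26, Rab7b, Rab44, Rab3b, Rab6b, Rab33a, Rab37, Rab39 and Rab9b. Among these are Rabs known from neurons, melanocytes and endocrine cells, such as Rab3c, Rab38 and Rab26. Other Rabs of synaptic vesicles, secretory granules and lysosome-related organelles were expressed, such as Rab3a (34.8 TPM), Rab3d (77.0 TPM) and Rab32 (23.1 TPM). The members below 1 TPM are therefore not set apart by such cell types. The Rab transcripts together made up 0.422% to 0.454% of all TPM, and the 10 highest members held 62.2% of that.

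**Figure D1:**
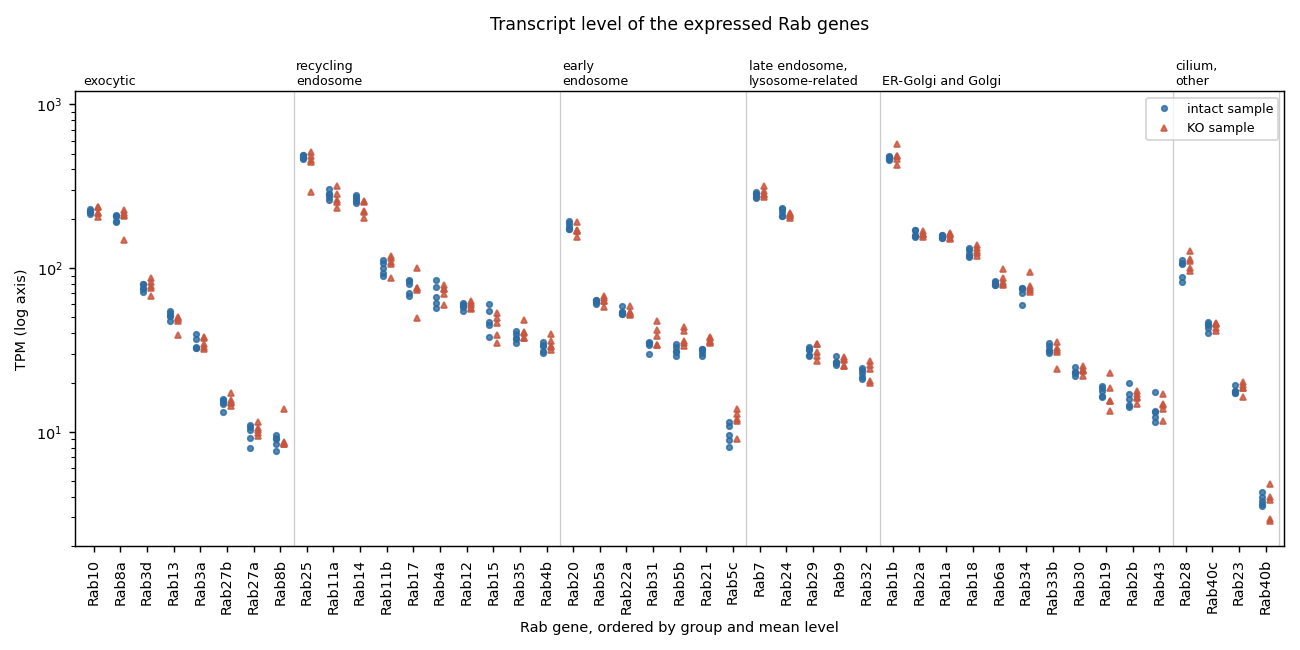
Level of each of the 45 expressed Rab genes in the 10 samples, in TPM on a log axis. Circles are the 5 intact samples and triangles the 5 KO samples, and genes are ordered by group and mean level. Rab1b and Rab25 stand highest, Rab40b lowest, and the 2 groups of samples lie on each other for nearly all genes, with Rab21 the only one without overlap.

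Rab1b, which acts in transport from the endoplasmic reticulum to the Golgi, was the highest member, with a mean of 478.8 TPM. Rab25, an epithelial relative of Rab11 that works at the apical recycling endosome, was second with 458.3 TPM. The spread between samples does not separate these neighbours, since Rab1b ranged from 427.88 to 572.43 TPM and Rab25 from 292.88 to 511.30 TPM. Rab7, the Rab of late endosomes and lysosomes (284.9 TPM), Rab11a, which directs recycling endosomes to the plasma membrane (274.8 TPM), and Rab14, which acts between Golgi and endosomes (247.6 TPM), came next. The ranges of these 3 genes overlap, from 268.59 to 318.64 TPM for Rab7, 231.08 to 316.69 TPM for Rab11a and 201.66 to 277.59 TPM for Rab14. They were followed by Rab10 (221.1 TPM) and Rab8a (202.0 TPM), which drive exocytosis to the plasma membrane, Rab24 (214.5 TPM), a Rab linked to autophagy, Rab20 (176.0 TPM), an endosomal Rab of epithelia, and Rab2a (161.8 TPM), which acts at the Golgi. Reads for Rab24 may in part belong to Prelid1, because only 50.4% of the 50-base windows of its transcripts are found in no other gene. For Rab20 this share was 77.1%.

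Rabs of the recycling endosome held the largest share of Rab transcripts, 33.0% in intact samples, with 10 of 10 members expressed. Rabs of the endoplasmic reticulum and Golgi held 26.6% (11 of 16 expressed), exocytic Rabs 14.1% (8 of 12), Rabs of late endosomes and lysosome-related organelles 13.2% (5 of 8), early endosomal Rabs 9.23% (7 of 7), and the remaining members, among them the cilium Rabs Rab23 and Rab28, 3.77% (4 of 6). Every listed Rab of the early and the recycling endosome was thus expressed, whereas the members below 1 TPM belonged to the other groups.

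Of 20 Rabs listed for AQP2 vesicle trafficking, 19 were expressed, and Rab3b was at 0.23 TPM or less in every sample. On the exocytic side, Rab10 was at 221 ± 6.06 TPM and Rab8a at 202 ± 8.91 TPM in intact samples (SD, n = 5 for these and the next values). Rab3d, a Rab of regulated secretory granules, was at 76.1 ± 3.57 TPM and its relative Rab3a, best known from synaptic vesicles, at 34.8 ± 3.12 TPM. Rab27b and Rab27a, which tether secretory vesicles to actin and to the plasma membrane, were lower, at 14.9 ± 1.05 and 9.82 ± 1.24 TPM. The values of these last 2 genes did not overlap in any pair of samples, from 13.20 TPM upward for Rab27b and up to 11.41 TPM for Rab27a.

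Among Rabs of recycling, Rab25 was at 477 ± 13.1 TPM, Rab11a at 281 ± 15.8 TPM and Rab14 at 264 ± 11.4 TPM in intact samples. Rab11b, the close relative of Rab11a, was at 99.98 ± 9.43 TPM, and 86.4% of its transcript windows are its own. Rab17, an epithelial Rab of apical recycling and transcytosis, was at 77.1 ± 7.62 TPM, Rab4a, of fast recycling, at 69.3 ± 11.5 TPM, and Rab35, also of fast recycling, at 38.0 ± 2.45 TPM. Of these, Rab4a split by line, with 57.03 and 61.30 TPM in intact clone 1, 66.40 TPM in the parental line and 84.99 and 76.86 TPM in intact clone 2. On the endocytic side, Rab5a, Rab5b and Rab5c, which control fusion of early endosomes, were at 62.6 ± 1.63, 31.6 ± 2.11 and 9.77 ± 1.38 TPM. Rab21, which regulates uptake and recycling of integrins and other cargo, was at 31.1 ± 1.33 TPM. Rab7 was at 279.6 ± 8.88 TPM and Rab18, a Rab of the endoplasmic reticulum and lipid droplets, at 123 ± 6.85 TPM.

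Few of these levels rest on transcripts shared with other genes. Of the 45 expressed members, 36 had at least 90% of their 50-base transcript windows to themselves, the median was 99.4%, and no member shared more than 0.956% of its windows with another Rab. The lowest shares were those of Rab43 (25.5%, shared with Gm45140), Rab4b (41.9%) and Rab2b (43.0%), and the levels of these 3 genes are uncertain.

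Because dDAVP acts through cyclic AMP, the promoters of the members were searched for the cyclic AMP response element TGACGTCA and for its half-site TGACG, on both strands, in the 250 bases before each start. Each element holds 2 overlapping half-sites, 1 on each strand. RefSeq start sites on GRCm38.p6 were available for 48 of the 59 members, with 60 promoters in all. The complete element was present in 2 of these promoters (3.33%), those of Rab25 and Rab5a, against 1.55% of all 32851 mouse promoters. The half-site was in 24 Rab promoters (40.0%) against 17.8% of all. The GC box GGGCGG was in 40 Rab promoters (66.7%) against 32.7% of all, and the median GC content was 60.2% against 52.4%. The promoters compared were not matched for GC content or level, so no enrichment of the half-site is read from these shares. A match of letters does not show that a factor binds there, and without samples grown without dDAVP no response of these genes was measured.

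The promoters of Rab25 and Rab5a are printed because they hold the complete element, that of Rab17 because its level parted KO 1 from KO 2 in the same direction as Rab25, and that of Rab21 because it is the expressed member whose KO and intact values did not overlap. Each runs 5′ to 3′ along the strand of the gene and ends at the base before the start. Capitals mark TGACG and its reverse complement CGTCA. The windows are chr3:88548280-88548529 (minus strand) for Rab25, chr17:53478984-53479233 (plus strand) for Rab5a, chr1:90967668-90967917 (minus strand) for Rab17 and chr10:115315592-115315841 (minus strand) for Rab21.
Rab25: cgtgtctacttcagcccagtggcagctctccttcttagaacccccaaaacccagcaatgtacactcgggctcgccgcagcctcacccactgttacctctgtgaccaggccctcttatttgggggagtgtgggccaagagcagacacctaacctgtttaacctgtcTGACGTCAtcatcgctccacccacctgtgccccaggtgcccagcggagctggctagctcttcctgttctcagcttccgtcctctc
Rab5a: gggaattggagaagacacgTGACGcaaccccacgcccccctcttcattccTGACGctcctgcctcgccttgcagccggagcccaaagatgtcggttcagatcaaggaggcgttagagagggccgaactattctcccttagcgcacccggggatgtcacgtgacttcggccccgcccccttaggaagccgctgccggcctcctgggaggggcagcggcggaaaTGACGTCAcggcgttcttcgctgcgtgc
Rab17: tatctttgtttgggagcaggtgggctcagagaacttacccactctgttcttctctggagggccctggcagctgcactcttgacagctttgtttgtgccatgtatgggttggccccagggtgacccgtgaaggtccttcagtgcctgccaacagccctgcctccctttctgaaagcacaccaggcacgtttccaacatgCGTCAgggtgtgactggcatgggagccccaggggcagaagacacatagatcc
Rab21: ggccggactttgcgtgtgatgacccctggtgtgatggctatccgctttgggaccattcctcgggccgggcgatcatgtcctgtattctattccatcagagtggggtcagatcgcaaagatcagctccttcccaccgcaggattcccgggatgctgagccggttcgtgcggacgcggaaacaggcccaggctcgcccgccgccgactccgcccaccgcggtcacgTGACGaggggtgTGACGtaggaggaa

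In Rab25 the complete element lies 85 to 78 bases before the start, and in Rab5a 28 to 21 bases before it. The Rab5a window holds 2 further half-sites, that of Rab17 holds 1 and that of Rab21 holds 2. All 4 genes were expressed in every sample, Rab25 highest by far.

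The next comparison asked whether loss of Camk2d changed the Rab transcripts. The 5 KO and 5 intact samples were compared on log2(TPM + 1) with limma over the 20000 genes of highest mean TPM, with p-values adjusted over all of them by the Benjamini-Hochberg method. On this scale the change of genes with few TPM is understated. None of the 52 Rabs tested had an adjusted p under 0.05, where 0.005% of all genes tested did, and the smallest adjusted p among the Rabs was 0.412. Without adjustment, 2 Rabs (Rab21 and Rab5b) had a p under 0.05 as higher in KO, where 4.53% of all genes did, and 1 (Rab14) as lower, where 2.46% did. These shares are near the background. With the exon 8 clones alone against the intact samples, 12 of the 52 Rabs (23.1%) had an unadjusted p under 0.05, where 12.5% of all genes tested did, and none had a limma adjusted p under 0.05.

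The summed level of all 59 members was 4383 ± 44.9 TPM in intact samples and 4360 ± 113 TPM in KO clones (SD, n = 5 each). In intact samples it was 4361, 4322, 4379, 4436 and 4416 TPM, and in KO 1 to KO 5 it was 4535, 4222, 4333, 4373 and 4338 TPM. The groups overlap, with KO 1 the highest and KO 2 the lowest of all 10 samples. The log2(KO/intact) of the means was -0.0075, and a two-sided exact permutation test over the 252 arrangements, whose smallest possible p is 0.00794, gave p = 0.683. After rescaling by median ratios the log2 ratio was -0.036, with an exact permutation p of 0.183. This test and those of the group sums below take the 5 intact samples as independent, although they came from 3 lines.

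**Figure D2:**
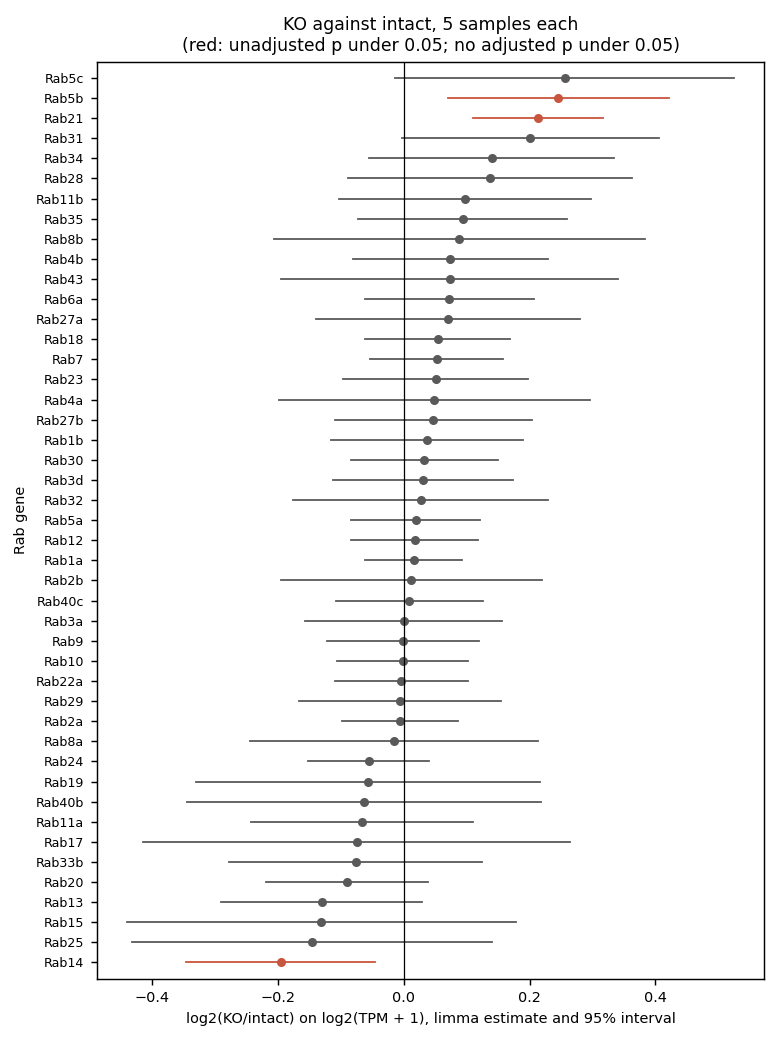
Log2(KO/intact) of each of the 45 expressed Rab genes on log2(TPM + 1), with the limma estimate as a point and its 95% interval as a line (5 samples per group). Estimates run from -0.20 for Rab14 to 0.26 for Rab5c, red marks an unadjusted p under 0.05 (Rab5b, Rab21 and Rab14), and only the interval of Rab5c reaches past 0.5.

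The intervals limit how large a change could have been missed. For 44 of the 45 expressed Rabs (97.8%) the 95% interval of log2(KO/intact) lay within 0.5 of 0 on either side, where it did for 80.9% of the 13047 genes with a mean of at least 1 TPM. The exception was Rab5c, with an interval from -0.01 to 0.53. These intervals take the 5 intact samples as independent. In a model with a random effect for line the count was again 44, and with 1 value per cell line it was 42, with Rab17 and Rab25 also outside. The median estimate over the expressed Rabs was 0.02, against 0.03 for those 13047 genes. An estimate beyond 0.25 in size was found for 1 Rab (2.22%) and for 10.4% of the 13047 genes. The Rabs and the 13047 genes were not matched for level, and only 2 of the 45 expressed Rabs had a mean under 10 TPM. No stability particular to the Rabs is therefore read from these shares. Of the expressed Rabs, 27 lay above and 18 below 0, and after rescaling by median ratios or quantile normalization 21 lay above and 24 below, so no direction is read from this split.

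Rab21 was the member with the smallest p. It was at 29.12, 32.08, 32.08, 31.81 and 30.26 TPM in intact samples and at 35.39, 35.61, 37.24, 37.98 and 34.65 TPM in KO clones. Every KO value lay above every intact value, which held for 1.64% of all genes tested in one direction or the other and for 1 of the 52 Rabs. The log2 ratio of KO to intact was 0.21 with a standard error of 0.046 (limma adjusted p = 0.412). Rab5b was at 34.55, 31.20, 32.73, 29.03 and 30.53 TPM in intact samples and at 41.24, 35.05, 33.52, 43.52 and 35.64 TPM in KO clones, with KO 1 and KO 4 highest and KO 3 within the intact range. Its log2 ratio was 0.25 with a standard error of 0.079 (limma adjusted p = 0.569).

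Rab14 was the member with the smallest p among those lower in KO. It was at 257.62, 272.32, 263.70, 277.59 and 249.02 TPM in intact samples and at 253.37, 201.66, 223.45, 256.51 and 220.91 TPM in KO clones. KO 1 and KO 4 were within the intact range and the other 3 clones below it. The log2 ratio was -0.20 with a standard error of 0.068 (limma adjusted p = 0.619). Aqp2 levels also differed between the clones, as given above, and their part in the values of these 3 genes was not tested.

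The early endosome was the group with the highest median, a log2(KO/intact) of 0.20 over its 7 members against 0.02 over all genes tested. Rab21, Rab5b, Rab5c (0.26, standard error 0.12), Rab31 (0.20, standard error 0.093) and Rab5a (0.02) had estimates above 0, and Rab20 (-0.09) and Rab22a (-0.00378) below. Rab31 sorts cargo between Golgi and endosomes, and Rab22a acts in endosomal recycling. Under the rescaled and the quantile-normalized values the Rab5a estimate lay below 0, and the group medians were 0.17 and 0.16. The summed level of the group was 404 ± 11.2 TPM in intact and 413 ± 8.14 TPM in KO samples (SD, n = 5), and the exact permutation test gave p = 0.214.

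Recycling Rabs summed to 1398, 1442, 1446, 1464 and 1484 TPM in intact samples and to 1460, 1211, 1401, 1391 and 1396 TPM in KO 1 to KO 5. KO 2 was lowest, KO 4 and KO 5 were just under the lowest intact sample, the parental line, and KO 1 and KO 3 were within the intact range. The log2(KO/intact) of the sums was -0.077, with an exact permutation p of 0.0873, which is 0.357 after adjustment over the 6 groups. Without KO 2 the log2 ratio of the sums was -0.035. Of the recycling Rabs, Rab25 had an estimate of -0.15 (95% interval -0.43 to 0.14) that was -0.00649 without KO 2, Rab11a of -0.07 (-0.24 to 0.11; -0.01 without KO 1), Rab11b of 0.10 (-0.10 to 0.30), Rab17 of -0.08 (-0.41 to 0.26; 0.06 without KO 2), Rab4a of 0.05 (-0.20 to 0.30) and Rab35 of 0.09 (-0.07 to 0.26). The intervals of these 6 genes include 0 and leave room for differences in either direction.

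The exocytic Rabs summed to 619 ± 5.93 TPM in intact and 619 ± 39.9 TPM in KO samples (SD, n = 5), with p = 0.976 by the exact permutation test. Rab10 (-0.00181, 95% interval -0.11 to 0.10) and Rab3a (-0.16 to 0.16) had estimates near 0. Rab3d (0.03, -0.11 to 0.17), Rab27a (0.07, -0.14 to 0.28), Rab27b (0.05, -0.11 to 0.20) and Rab8a (-0.02, -0.24 to 0.21) did not pass the test either. Rab13, which acts in delivery to tight junctions, was at 51.4 ± 2.67 TPM in intact and 47.0 ± 4.72 TPM in KO samples, and KO 2, at 38.85 TPM, was below all the others. Of the further Rabs of the AQP2 list, Rab7 had an estimate of 0.05 (-0.05 to 0.16) and Rab18 of 0.05 (-0.06 to 0.17). Rab34, a Golgi Rab that also takes part in cilium formation, was at 71.0 ± 6.82 TPM in intact and 78.4 ± 9.18 TPM in KO samples (0.14, standard error 0.088, limma adjusted p = 0.769). Rab20 and Rab24 had estimates of -0.09 and -0.06, with limma adjusted p-values of 0.776 and 0.820. Single samples moved many of these estimates. Without KO 2 the log2 ratio was 0.07 for Rab34, 0.03 for Rab35, 0.13 for Rab31, -0.06 for Rab13 and -0.06 for Rab20. Without KO 1 it was 0.02 for Rab7 and 0.03 for Rab18. Without intact 2_2 it was 0.00553 for Rab27a, without intact 1_1 it was 0.00597 for Rab27b, and without intact 1_2 it was -0.03 for Rab24. For Rab11b it ran from 0.06 without intact 1_2 to 0.17 without KO 4.

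**Figure D3:**
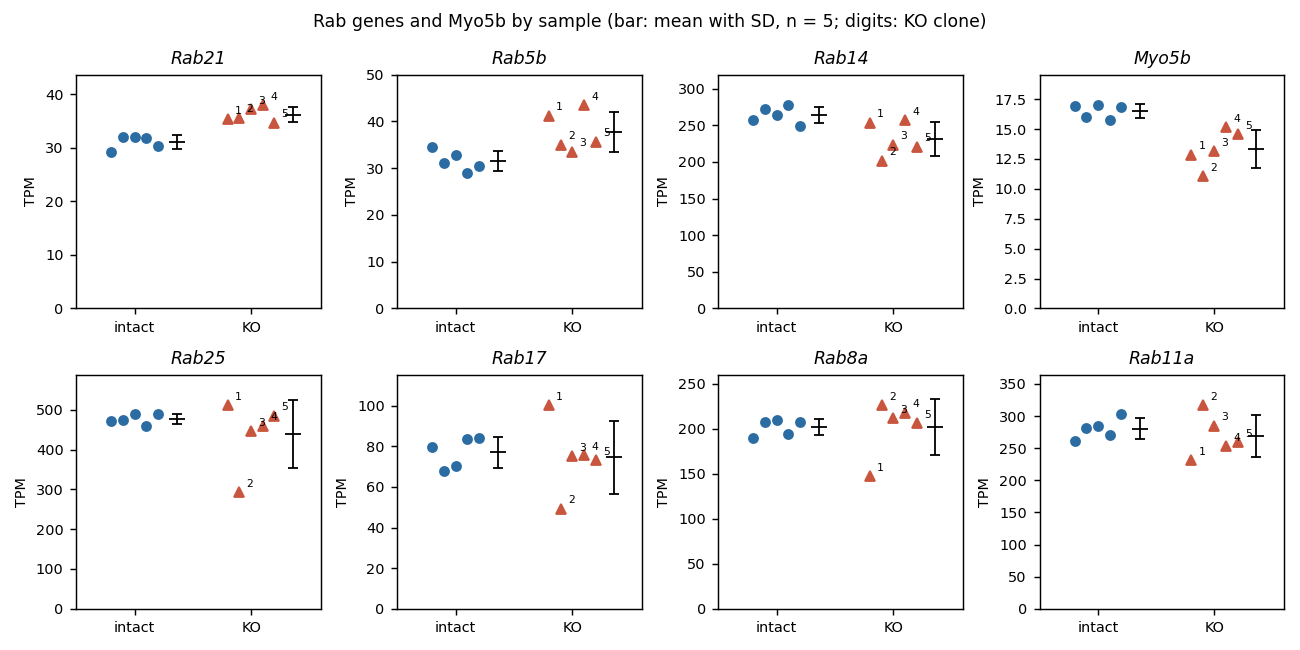
TPM of 7 Rab genes and of Myo5b in the 5 intact samples (circles, in the order parental, intact 1_1, 1_2, 2_1 and 2_2) and the 5 KO clones (triangles, numbered), with the mean and SD of each group, on axes that start at 0. Rab21 is higher and Myo5b lower in every KO clone, whereas Rab25 and Rab17 are lowest in KO 2 and highest in KO 1, and Rab8a and Rab11a the reverse.

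The KO clones were more spread than the intact samples, a difference that was not tested. Across the expressed Rabs the median SD on log2(TPM + 1) was 0.080 among intact samples and 0.14 among KO clones, and over the 13047 genes with a mean of at least 1 TPM it was 0.11 and 0.16. The intact samples included pairs from 1 clone, whose median difference was 0.051 and 0.070 over the Rabs, against 0.081 between the 2 intact clones, so the intact SD covers 3 lines and the KO SD 5. KO 2 was the highest or lowest of the 10 samples for 22 of the 45 expressed Rabs, KO 1 for 18 and KO 5 for 1. These are 48.9%, 40.0% and 2.22% of the Rabs, against 46.9%, 33.5% and 11.2% of the 13047 genes.

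KO 1 and KO 2 were the opposite extremes of all 10 samples for 6 expressed Rabs (13.3%), against 11.6% of the 13047 genes with a mean of at least 1 TPM. Rab25 was at 511.30 TPM in KO 1 and at 292.88 TPM in KO 2, while the other 8 samples lay between 446.54 and 490.72 TPM. KO 2 thus had 61.3% of the intact mean. Rab17, which like Rab25 is restricted mainly to epithelia, was at 100.15 TPM in KO 1 and at 49.30 TPM in KO 2, with the others between 67.79 and 84.21 TPM. Rab1b was at 572.43 TPM in KO 1 and at 427.88 TPM in KO 2. KO 2 also stood outside the range of the other 9 samples in 4 of the 9 principal cell markers. Fxyd4 was at 194 TPM in KO 2 against 588 to 849 TPM, Avpr2 at 114 against 192 to 264 TPM, Scnn1a at 141 against 146 to 260 TPM and Hsd11b2 at 115 against 11.5 to 43.1 TPM. KO 1 stood outside the range of the others in 3 of the 9, with Aqp2 at 1281 against 1618 to 5502 TPM, Scnn1a at 260 against 141 to 193 TPM and Hsd11b2 at 11.5 against 17.8 to 115 TPM. The part of these shifts in the Rab values of both clones was not tested.

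Rab8a, Rab11a and Rab19 had the reverse order. Rab8a was at 147.53 TPM in KO 1, which is 73.0% of the intact mean, and at 226.05 TPM in KO 2, with the other 8 samples between 190.21 and 218.05 TPM. Rab11a was at 231.08 TPM in KO 1 and 316.69 TPM in KO 2, and Rab19, a Golgi Rab, at 13.35 and 22.71 TPM. In KO 2 the ranking of the recycling Rabs therefore turned, with Rab11a above Rab25, where Rab25 was higher in each of the other 9 samples. Among the expressed Rabs, the largest ratios of the highest to the lowest line were found for Rab17, Rab25 (1.75), Rab19 and Rab40b (1.67), and KO 1 and KO 2 supplied both ends for all of these but Rab40b.

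**Figure D4:**
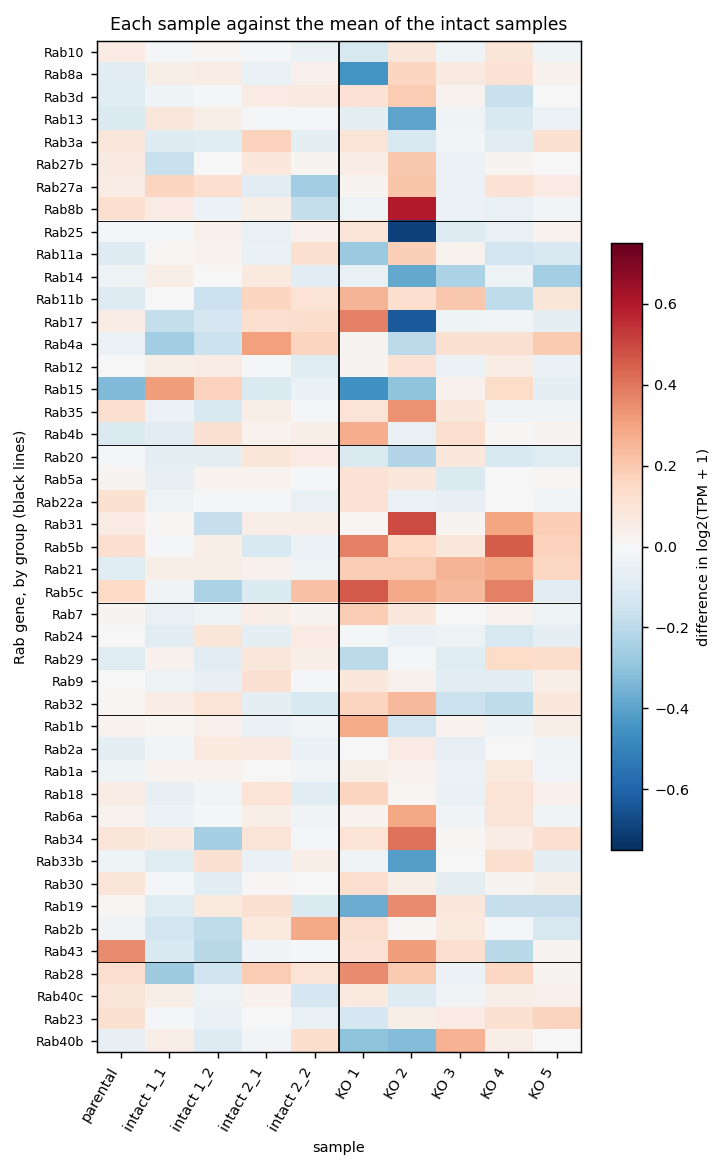
Difference of each sample from the mean of the intact samples in log2(TPM + 1) for the 45 expressed Rab genes (rows, by group) and the 10 samples (columns, KO right of the black line). Colour is strongest in KO 1 and KO 2, with Rab25 and Rab17 low and Rab8b and Rab31 high in KO 2, Rab8a low in KO 1, and Rab21 high in each of the KO clones.

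To ask whether the guide mattered, exon 9 clones were set against exon 8 clones in 1 limma model of intact, exon 8 and exon 9 samples with a common variance. With limma, none of the 52 Rabs had an adjusted p under 0.05, where 0.31% of the genes tested did. Without adjustment, 2 Rabs had a p under 0.05 as higher in the exon 9 clones, Rab15 (0.41, standard error 0.16) and Rab40b (0.42, standard error 0.13), against 4.93% of all genes, and 6 as lower, against 7.18% of all genes. The 6 were Rab32 (-0.29, standard error 0.10), which acts at lysosome-related organelles, Rab3d (-0.20, standard error 0.073), Rab7 (-0.14, standard error 0.055), Rab35, Rab5a and Rab6b, which was at 0.32 TPM or less in every sample. Their limma adjusted p-values were 0.201 to 0.409. With 1 sample left out the Rab7 estimate ran from -0.19 to -0.08.

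Rab32 was at 25.57 and 27.15 TPM in the exon 8 clones, at 20.29, 19.80 and 24.09 TPM in the exon 9 clones, and at 20.99 to 24.54 TPM in intact samples. Rab3d was at 81.88 and 86.94 TPM against 77.52, 67.75 and 75.76 TPM. Rab15, which acts between early and recycling endosomes, was at 35.06 and 38.95 TPM against 49.43, 53.20 and 45.92 TPM, and its intact range of 38.15 to 60.31 TPM covers all but KO 1. Rab40b was at 2.94 and 2.87 TPM against 4.80, 4.02 and 3.85 TPM. Rab33b, a Golgi Rab, was at 31.72 and 24.06 TPM against 32.34, 35.28 and 30.83 TPM.

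The comparison of the guides turned on which exon 8 clone was kept. With KO 1 left out, so that KO 2 stood alone and was assumed to vary like the other groups, 8 of the 52 Rabs had a limma adjusted p under 0.05, where 8.65% of all genes tested did. Rab25 (0.66, adjusted p = 0.00078), Rab17 (0.59), Rab33b (0.43) and Rab13 (0.33) were lower in KO 2 than in the exon 9 clones, and Rab6a (-0.27), Rab6b, Rab8b (-0.64) and Rab7b were higher. With KO 2 left out and KO 1 alone, Rab8a (0.52, limma adjusted p = 0.00695) was lower and Rab1b (-0.26, adjusted p = 0.0348) higher in KO 1, where 3.17% of all genes tested were called. No Rab was called in both of these fits, and each difference rests on a single clone.

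Regulators and effectors of Rabs were examined as lists of 125 genes, of which 116 were tested and none had a limma adjusted p under 0.05 in either comparison. Without adjustment, 6 (5.17%) were higher and 1 (0.862%) lower in KO, where 4.53% and 2.46% of all genes tested were, so these shares are near or below the background. Between the guides, 4 (3.45%) were higher in the exon 9 clones and 11 (9.48%) lower, against 4.93% and 7.18% of all genes, and the 11 included 6 of the 43 effectors tested and 4 of the 33 GAPs. Of the 34 GEFs listed, 32 were tested, and 4 (12.5%, against the same 4.53%) had an unadjusted p under 0.05 as higher and 0 as lower. Rin3, an activator of Rab5 family members, was at 33.7 ± 3.75 TPM in intact and 45.0 ± 3.51 TPM in KO samples (SD, n = 5), a log2(KO/intact) of 0.41 (standard error 0.081, limma adjusted p = 0.378). Sbf1, a member of the DENN family of GEFs, was at 53.42, 56.30, 47.04, 43.79 and 43.15 TPM in intact and 67.92, 60.03, 68.13, 57.51 and 61.43 TPM in KO samples (0.37, standard error 0.083, limma adjusted p = 0.455). The Sbf1 values of the groups did not overlap, which held for 1.64% of all genes tested in one direction or the other. Dennd1a, the GEF of Rab35, was at 29.0 ± 2.74 and 34.9 ± 4.68 TPM (0.26, adjusted p = 0.651).

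Of the 43 effectors tested, 1 (2.33%, against 2.46% of all genes) had an unadjusted p under 0.05 as lower, the motor Myo5b. Myosin Vb binds Rab11 family members and Rab8a and carries recycling vesicles, among them those with AQP2, to the apical membrane. Myo5b was at 16.90, 16.05, 17.01, 15.74 and 16.84 TPM in intact samples and at 12.84, 11.05, 13.13, 15.14 and 14.59 TPM in KO clones. Every KO value lay below every intact value, a lack of overlap that 1.64% of all genes tested had in one direction or the other, and KO 2 was lowest. The log2 ratio was -0.29 with a standard error of 0.082 (limma adjusted p = 0.524). Rab11fip5, which links Rab11 to vesicles, was at 23.5 ± 0.839 TPM in intact and 27.2 ± 2.68 TPM in KO samples (0.20, adjusted p = 0.624), with KO 2 below the intact range.

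Of the GAPs, 33 of 34 were tested and 1 (3.03%, against 4.53% of all genes as higher) had an unadjusted p under 0.05, Tbc1d9b, at 71.1 ± 0.967 TPM in intact and 75.5 ± 2.22 TPM in KO samples (0.09, limma adjusted p = 0.661). Its intact values, up to 72.58 TPM, and KO values, from 73.64 TPM, did not overlap, where 1.64% of all genes tested did not. Partners without overlap were not counted over the lists. Tbc1d10a, a GAP for Rab27a and Rab35, had the highest mean of the GAPs, 205 TPM, and fell into separate levels. It was at 150.60 and 157.52 TPM in intact clone 1 and at 155.91 TPM in KO 2, whereas the other 7 samples lay between 219.10 and 234.14 TPM. The general machinery of the Rab cycle was abundant, with a mean of 275 TPM for the GDP dissociation inhibitor Gdi2 and 247 TPM for Rabac1, which helps to release Rabs from the inhibitor. Rabggta and Rabggtb, the subunits of the enzyme that attaches the lipid anchor, had means of 81.8 and 77.0 TPM. All 8 genes of this list were tested, and none had an unadjusted p under 0.05 for KO against intact. The highest GEFs were Rab3ip, the activator of Rab8, with 194 TPM, and Rabgef1, the activator of Rab5, with 106.1 TPM.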

How the data were processed

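RNA-seq was analysed in 10 mpkCCD samples. The authors made full-length cDNA, sequenced it as paired ends, aligned reads with STAR and quantified genes with RSEM. The authors deposited TPM per Ensembl gene with 1 column per sample. TPM keep no record of depth, so the depth per sample is unknown and a 0 is reported as listed at 0. The authors' own test used edgeR on expected counts, which were not used here.

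For the 20000 genes of highest mean TPM, log2 values were taken after a pseudocount of 1 was added. R 4.3.3 and limma 3.58.1 (lmFit, eBayes with an intensity trend) gave the tests, with Benjamini-Hochberg adjustment and a threshold of 0.05. Summed levels were compared by a two-sided exact permutation test. The fit was tested on simulated data. Python 3.11.15 and matplotlib 3.10.9 were used for the rest. Groups were taken from the labels, and the guide of each KO clone from the mutations that the study lists for it. Each KO clone is 1 sample. No source states whether paired samples of an intact clone were separate cultures, so their spread may be technical.

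The members, the gene lists and the motifs were chosen with earlier results of these data known. Rabs named in the text are the AQP2 list, the 10 highest members, up to 5 per direction by p for KO against intact, up to 3 per direction for the guides, and the 4 with the largest ratio between lines. Members and partners singled out besides these were chosen after their values were seen. Alternatives were other pseudocounts, filters, normalizations and moderation, 1 value per cell line, the line as a random effect, the clones of each guide alone and leaving out each sample. Transcript windows came from GENCODE M21 on GRCm38 and promoters from RefSeq on GRCm38.p6, which the authors did not use.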

Additional observations from a re-analysis of the deposited data

Results flagged for a closer look

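Within the groups of 5 samples, the 31 named and expressed Rabs and the summed Rab level were searched for a sample that stood apart by more than Dixon's critical value of 0.71. Of 64 groups examined, 4 held such a sample, where chance gives about 1 in 20. Rab8a was at 147.53 TPM in KO 1, and the next KO clone was at 206.49 TPM. Rab34 was at 94.33 TPM in KO 2, and the next clone was at 77.2 TPM. Rab13 was at 38.85 TPM in KO 2, with the next at 47.31 TPM. Rab31 was at 29.8 TPM in intact 1_2, with the next intact sample, from the same clone, at 33.91 TPM. The causes of these single values were not tested.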

How the results depend on the processing

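No Rab was called for KO against intact under any of the 12 alternative settings or the 10 fits that left out 1 sample, where adjusted p-values of the 24 genes examined were 0.269 or more. The count of all genes called was 1, and became 2 with a pseudocount of 0.1 and 50 with the exon 8 clones alone, and was 1 to 2 with a sample left out. Rabs with an unadjusted p under 0.05 numbered 3, against 12 (23.1%, where 12.5% of all genes were) with the exon 8 clones alone and 3 to 5 with a sample left out. The median log2 ratio of the Rabs became 0.059 with the exon 8 clones alone. Between the guides, 62 genes were called, against 6 with 1 value per line, 36 with the line as a random effect, and 21 to 1730 with a sample left out. The 1730 arose without KO 1 and 634 without KO 2. Rabs called numbered 0 to 8 with a sample left out, and Rabs with an unadjusted p under 0.05 numbered 8, against 5 without a trend, 5 with 1 value per line and 5 to 17 with a sample left out. The 17 arose without KO 1 and are 32.7% of the Rabs, where 23.3% of all genes had such a p. The log2 ratio of summed Rab TPM was -0.022 to 0.0039 with a sample left out, and above 0 only without KO 2.

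Genes with an estimate near 0 changed sign. With the exon 9 clones alone, the log2(KO/intact) was 0.00626 for Rab3a, -0.047 for Rab3d, -0.031 for Rab5a, -0.00135 for Rab7, 0.070 for Rab8a, 0.00715 for Rab10 and -0.00702 for Rab27b. With the exon 8 clones alone it was -0.088 for Rab4a. For Rab5a it was -0.00968 after median-ratio rescaling and -0.016 after quantile normalization. With a sample left out it ranged from -0.029 to 0.044 for Rab3a, -0.00903 to 0.080 for Rab3d, -0.017 to 0.12 for Rab4a, -0.00418 to 0.050 for Rab5a, -0.060 to 0.093 for Rab8a, -0.024 to 0.027 for Rab10 and -0.19 to 0.063 for Rab17. The causes were not tested. Unknown depth limits the low members, and clone number limits the comparison of the guides. No paired analysis was possible because the labels pair no KO clone with an intact sample.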
